A study of Mus musculus with 60 samples.

Results

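Apolipoproteins are the protein coat of the particles that carry fat and cholesterol through plasma and lymph. The 10 genes described here are 8 apolipoprotein genes (Apoa1, Apoa2, Apoa4, Apob, Apoc2, Apoc3, Apoe and Apom), Mttp, which loads lipid onto the Apob protein, and Apobec1, which edits the Apob transcript. They were taken by gene symbol out of 31354 genes with a row in any of 3 count tables from mouse cholangiocyte-derived liver organoids. The list was chosen on measured values of these libraries, namely Apoa4 in the culture comparison and Apoe in the passage comparison. Those values are therefore given as descriptions with no test, and are left out of every count of genes passing a test. All 10 genes had a row in the culture and bulk passage tables and 8 had one in the single organoid table. Apoa4 and Apoc3 were not analysed in single organoids.

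A lipoprotein is built in the endoplasmic reticulum of hepatocytes and enterocytes, where MTP, the product of Mttp, transfers lipid to the growing ApoB protein. ApoA1 is the core protein of high-density lipoprotein, ApoA2 is its companion, and ApoA4 and ApoC3 travel on triglyceride-rich particles made by the gut and liver. ApoE and ApoB are ligands of the low-density lipoprotein receptor, ApoC2 activates lipoprotein lipase and ApoC3 inhibits it, and ApoM carries sphingosine-1-phosphate. Apobec1 deaminates a cytidine of the Apob transcript, which gives the short ApoB form of chylomicrons. Cholangiocytes, the epithelial cells of the bile duct, are not known as a main source of lipoproteins.

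All organoids came from livers of C57BL/6N mice, 3-4 months old by the labels, and no group carried a transgene or drug. The culture comparison set 3 cultures in Matrigel domes against 3 in dilute shaking suspension. Each culture number was taken to stand for a pool of 2, 4 or 3 mice, the same in both conditions. The bulk passage comparison measured Sets 1, 3 and 4, each from 1 mouse, at passages 11 and 4 with 2 technical replicates a sample, which were summed. The single organoid table held 35 organoids kept by the study, 8 of Set 1, 10 of Set 2, 5 of Set 3 and 12 of Set 4, which were grown in suspension and picked at passage 11 for Set 1, passage 3 for Sets 2 and 3 and passage 4 for Set 4. Every set was 1 mouse, so the mouse, its passage and its time in culture cannot be told apart between sets, and tests over organoids measured only the spread within these mice. Levels are given as CPM, the count per 1000000 counts of a library, after TMM scaling, set within each table. In bulk libraries, fewer cells of a type and less RNA per cell cannot be told apart.

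Total counts ran from 1776490 to 14761853 in domes, 3837619 to 12089655 in suspension, 1486347 to 5532630 in the bulk passage samples and 1059002 to 11175868 in the kept organoids. The 12 cholangiocyte and ductal markers all had rows, and their summed level was 4941 to 10787 CPM in the bulk libraries and 3793 to 8384 CPM in single organoids. Of 22 hepatocyte markers, 1 of which matched no gene name, 15 had a row in the culture table, 12 in the bulk passage table and 16 in the single organoid table, and Ahsg, Serpina1a, Hpd and Pck1 had none in any. Mitochondrial transcripts took 1.64 to 2.02% of counts in domes and 3.72 to 4.02% in suspension. The 3 dome libraries differed more from each other (chi-square per degree of freedom 19.99 to 33.4) than the 3 suspension libraries did (4.61 to 10.0), and Dome 1 had the most counts of the domes.

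Apoa1 (ENSMUSG00000032083), Apoc3 (ENSMUSG00000032081) and Apoa4 (ENSMUSG00000032080) are neighbours on chromosome 9, within 14880 bases (GRCm38, chr9:46228580-46243459). Apoa1 (chr9:46228580-46230466) and Apoa4 (chr9:46240696-46243459) lie on the plus strand and Apoc3 (chr9:46232933-46235636) between them on the minus strand. Apoa4 overlaps Gm47528 and Gm10680 on the opposite strand in GENCODE vM21, and the sources used here do not give how reads in such overlaps were assigned. The stretches before the Apoa1 and Apoa4 starts are shown because these genes had their highest levels in the same libraries. Both are RefSeq sequence on the plus strand, ending at the base before the annotated gene (chr9:46228380-46228579 and chr9:46240594-46240695):
Apoa1: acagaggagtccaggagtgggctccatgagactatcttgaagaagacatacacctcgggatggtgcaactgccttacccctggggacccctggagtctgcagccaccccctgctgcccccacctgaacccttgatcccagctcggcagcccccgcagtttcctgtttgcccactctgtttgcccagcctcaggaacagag
Apoa4: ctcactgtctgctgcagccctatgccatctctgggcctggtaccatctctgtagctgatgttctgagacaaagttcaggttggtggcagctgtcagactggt
Capitals would mark any of 4 motifs searched on both strands: TATAAA, the TATA box; CAAAGTCC, a core of HNF4-type sites; AGGTCA, a nuclear receptor recognition core; and GTTAAT, an HNF1-type sequence. Neither stretch holds these letters. Among all 32851 RefSeq start windows of 300 bases, 13.6% held TATAAA, 1.42% CAAAGTCC, 16.3% AGGTCA and 7.10% GTTAAT, and 4, 0, 2 and 2 of the 12 windows of the 9 matched members did. Matches on the 2 strands can overlap each other.

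The question of the culture comparison was what growth in suspension does to organoid expression. Across 12699 genes tested, 29.8% passed the adjusted p threshold of 0.05, and 3 of the 9 members open to a test did, all higher in domes: Apoa1, Apoa2 and Apoc3. With culture number as a block 4 members were called, Apoa1, Apoc3 and Apoe higher and Apob lower, and Apoa2 was not. The median log2 fold-change of the 9 was 0.78, against -0.04 over all genes tested. These calls were fragile, as the values of each library show.

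Apoa1 stood at 159, 4.40 and 12.1 CPM in Domes 1, 2 and 3, and at 2.74, 2.36 and 1.52 CPM in Suspensions 1, 2 and 3. The groups did not overlap, but Dome 1 held 2084 counts and Dome 2 held 6. The log2 fold-change was 4.94 (SE 1.09, adj. P-value = 0.00925). Without Dome 1 it was 2.05 (adj. P-value = 0.0174), and without Suspension 3 the call was lost at 4.58 (adj. P-value = 0.0507). Apoc3 stood at 50.9, 0 and 2.75 CPM in domes, and at 0.842, 0.473 and 1.03 CPM in suspension. Dome 1 was again the high library. The 0 of Dome 2, with 1885591 counts, allows up to 1.59 CPM of its plain total by counting error. After TMM scaling 1 count of Dome 2 is 0.733 CPM. The difference was 4.64 on the log2 scale (SE 1.14, adj. P-value = 0.0141) and 0.83 without Dome 1 (adj. P-value = 0.550), and it was not called without any of the 3 suspension libraries (adj. P-value 0.0521 to 0.0653) nor by limma-voom (adj. P-value = 0.0638).

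Apoa4, on whose dome level the list was chosen, read 80.4, 2.93 and 5.50 CPM in domes against 0.421, 0.473 and 1.03 CPM in suspension. Each dome was above each suspension library, with 1056 counts in Dome 1 against 4 and 10 in the other domes. The fitted log2 difference was 5.44, and 2.48 without Dome 1. Dome 1 thus carried the highest level of all 3 neighbours, as the plot of the 12 bulk libraries shows.

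**Figure D1:**
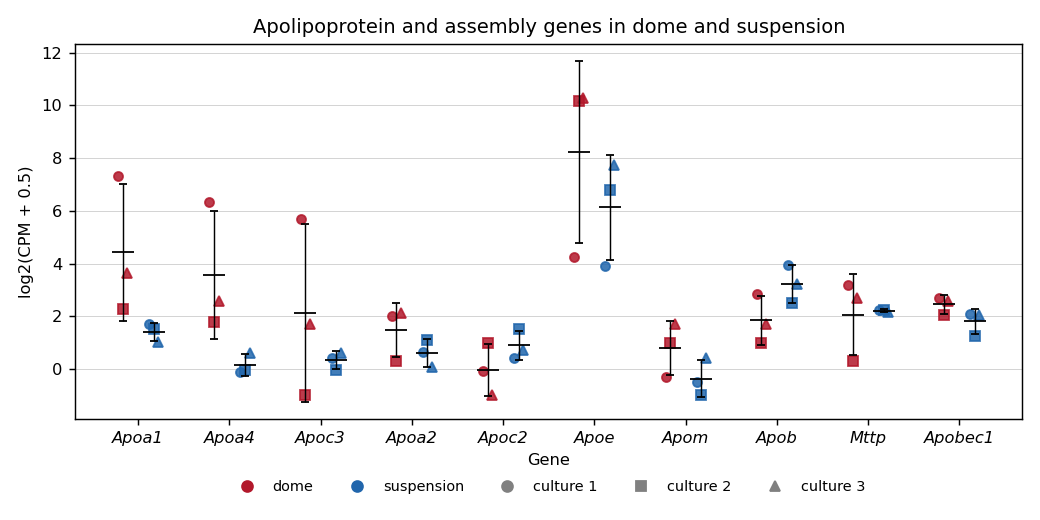
Level of each gene in 3 dome and 3 suspension libraries, as log2(CPM + 0.5) on the vertical axis. Points are libraries, shapes are culture numbers, dashes are means and bars are SD (n = 3). Dome 1 is far above the other libraries for Apoa1, Apoa4 and Apoc3, and both libraries numbered 1 are low for Apoe.

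Apoe (ENSMUSG00000002985, chr7:19696109-19699188, minus strand) had the opposite order among domes. It measured 18.6, 1161 and 1229 CPM in Domes 1, 2 and 3, and 14.5, 110 and 212 CPM in Suspensions 1, 2 and 3. Both libraries numbered 1 were low and both libraries numbered 2 and 3 were high, so the groups overlapped although each dome exceeded the suspension of its own number, by 1.28, 10.5 and 5.80 times. At 2.82 on the log2 scale (SE 1.18) the difference was not called (adj. P-value = 0.0963), whereas with culture number as a block it was 2.22 (adj. P-value = 0.00291). The difference was also called without Dome 1 (3.40, adj. P-value = 0.0104). With no filter beyond 1 count it was 2.77 (adj. P-value = 5.16e-23), although the libraries and their overlap were the same. That p-value cannot be taken as a measure of the spread between cultures. Of 2 macrophage markers tested, with a median log2 fold-change of 0.97, 1 was called higher in domes and the other was not called. The called marker was Cd68, a lysosomal protein abundant in macrophages that also express ApoE (log2 fold-change 3.06, adj. P-value = 0.0223). The summed level of the 12 macrophage markers, of which 5 had a row, was 6.93, 93.1 and 29.1 CPM in the 3 domes and 3.37 to 9.46 CPM in suspension. Cd68 alone averaged 41.2 CPM in domes and 4.74 CPM in suspension, so these sums mostly restate Cd68. The defining macrophage markers C1qb, C1qc, Clec4f, Marco, Tyrobp and Lyz2 had no row in the culture table. The part of this cell type in the Apoe level was not tested. Apoe has 3 RefSeq start windows. Windows 2 and 3 lie inside the annotated gene, and hold TATAAA and GTTAAT. The 250 bases before the start at the annotated gene edge (minus strand, chr7:19699189-19699438) hold none of the 4 motifs, and are shown as Apoe was chosen on its passage difference:
Apoe: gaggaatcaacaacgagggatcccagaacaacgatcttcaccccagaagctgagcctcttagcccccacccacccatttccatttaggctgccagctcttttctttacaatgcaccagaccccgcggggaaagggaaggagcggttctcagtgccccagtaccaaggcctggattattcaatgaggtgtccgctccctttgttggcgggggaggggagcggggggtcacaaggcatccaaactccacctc

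Apoa2 (chr1:171225054-171226379), the companion of Apoa1 on high-density lipoprotein, stood at 3.58, 0.733 and 3.85 CPM in domes and 1.05, 1.66 and 0.551 CPM in suspension. Culture 2 went the other way, with 1 count in Dome 2. The log2 fold-change was 1.70 (SE 0.57, adj. P-value = 0.0461), and 1.57 with the culture block, where the call was lost (adj. P-value = 0.0898). Apoc2 (chr7:19671579-19677941), the lipase activator, differed by -1.42 (log2, SE 0.73, adj. P-value = 0.164) on 0 to 17 counts a library. This gene shares its strand and position with the annotated Gm44805, so its reads may be split. Apom (chr17:35128997-35132050), with 0 to 12 counts, differed by 0.78 (SE 1.03, adj. P-value = 0.595). Neither low-count gene could be told apart between domes and suspension at this depth.

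For the assembly genes the picture differed. Apob (ENSMUSG00000020609, chr12:7977648-8016835), the structural protein of the particles, stood at 6.70, 1.47 and 2.75 CPM in domes and 14.7, 5.20 and 8.95 CPM in suspension. The groups overlapped, but each dome was below the suspension of its own number. The log2 fold-change was -1.03 (SE 0.48, adj. P-value = 0.126), and with the culture block -1.36, where Apob passed the test (adj. P-value = 0.00813). Without Dome 1 it was -2.12 (adj. P-value = 0.0393), and with no filter beyond 1 count -1.06 (adj. P-value = 0.0147). The p-value with no filter carries the limit given above for Apoe. Mttp (chr3:138089854-138144968) stood at 8.53, 0.733 and 6.05 CPM in domes and 4.21, 4.26 and 3.99 CPM in suspension, with 1 count in Dome 2 (log2 fold-change 0.58, SE 0.46, adj. P-value = 0.362). Without Dome 2 Mttp was called higher (0.90, adj. P-value = 0.0406), and without Dome 1 the value was -0.16 (adj. P-value = 0.862). Mttp overlaps Trmt10a and Gm43691 on the opposite strand. Apobec1 (chr6:122577792-122602444) stood at 6.02, 3.67 and 5.50 CPM in domes and 3.79, 1.89 and 3.65 CPM in suspension, and was 1.51 to 1.94 times higher in each dome than in the suspension of its number (log2 fold-change 0.74, SE 0.36, adj. P-value = 0.139). Of its lipid loader and its editor, Mttp read lower in the dome in culture 2, as Apob did, and higher in cultures 1 and 3, and Apobec1 read higher in each. The 221 bases before the annotated Apob gene (chr12:7977427-7977647, plus strand) are shown for its set and culture differences, with TATAAA in capitals at -60 to -55 from the RefSeq start:
Apob: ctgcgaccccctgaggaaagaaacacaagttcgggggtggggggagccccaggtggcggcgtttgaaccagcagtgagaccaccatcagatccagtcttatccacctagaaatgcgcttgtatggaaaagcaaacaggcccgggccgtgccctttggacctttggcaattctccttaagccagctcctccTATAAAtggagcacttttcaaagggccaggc

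Other genes of the pathway moved in domes as follows. Of 9 other apolipoproteins tested, 5 were called higher and 0 lower (median log2 fold-change 1.85), with the largest rise in Saa1, an acute phase apolipoprotein of high-density lipoprotein (5.27, SE 0.89, adj. P-value = 0.00344). Of 24 genes of lipoprotein assembly and secretion, 10 were higher and 2 lower (median 0.62). Tm6sf2, which is needed to lipidate particles, rose by 3.66 (SE 0.41, adj. P-value = 0.000813), and Mia2, a cargo factor for large secreted particles, fell by 1.27 (SE 0.30, adj. P-value = 0.0122). Of the 8 partners of ApoB mRNA editing, 0 were higher and 5 lower (median -0.70), led by Hnrnpab (-1.64, SE 0.37, adj. P-value = 0.0101), an RNA-binding protein found with the editing enzyme. Of 13 lipoprotein receptors tested, 6 were higher and 1 lower: Scarb1, the high-density lipoprotein receptor, rose by 1.24 (SE 0.25, adj. P-value = 0.00602) and Lrp8, an ApoE receptor, fell by 1.14 (SE 0.30, adj. P-value = 0.0190).

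Among 11 genes of lipid efflux and remodelling, 3 were higher, with Npc2 at 1.33, and 1 was lower, Angptl4, a lipoprotein lipase inhibitor, at -1.04 (adj. P-values 0.00329 and 0.0200). Of 22 tested regulators of apolipoprotein genes, 6 were higher and 2 lower. Creb3l3, a liver and gut factor that activates Apoa4 and Apoc2, rose by 3.46 (SE 0.56, adj. P-value = 0.00282), while Mlxipl, a glucose-responsive factor, fell by 1.53 (SE 0.44, adj. P-value = 0.0258). Beside the 29.8% of all genes called, the 8 of 22 regulators and 4 of 11 efflux genes are near the background. Markers of intestinal, hepatocyte and ductal cells moved beside them. Of 5 enterocyte markers tested, 4 were higher in domes and 0 lower, led by Alpi, intestinal alkaline phosphatase (5.29, SE 1.06, adj. P-value = 0.00626). The summed enterocyte markers (10 of 12 with a row) were 516, 185 and 304 CPM in Domes 1, 2 and 3 and 142 to 169 CPM in suspension, so Dome 1 was highest here too. Lct and Isx had no row in any table. Of 7 hepatocyte markers tested, 3 were higher and 0 lower, led by the urea cycle enzyme Ass1 (3.38, SE 0.47, adj. P-value = 0.00170), with summed levels of 461, 628 and 1130 CPM in Domes 1, 2 and 3 and 506, 277 and 651 CPM in Suspensions 1, 2 and 3. Here Dome 1 was the lowest dome and below Suspension 1. Of 12 ductal markers, 5 were higher and 1 lower, with Krt19 at 2.00 and Spp1 at -1.61 (adj. P-values 0.00381 and 0.00915). Their sums were 6848, 10787 and 8086 CPM in Domes 1, 2 and 3 and 5984 to 6525 CPM in suspension, with no overlap. The part of these cell states in the Apoa1, Apoa4 and Apoc3 levels was not tested.

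In the bulk passage comparison, which asked what prolonged passaging changes, 20.3% of 13738 genes tested passed the threshold. Of the 9 members open to a test, 5 passed the filter on low counts and 1 of them, Apoa1, was called, higher at passage 11. Apoa4, Apoc2, Apoc3 and Apom failed that filter. The median log2 fold-change of the 5 was 0.04, against -0.05 over all genes tested.

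Apoe, on whose passage difference the list was chosen, stood at 3.37, 2.39 and 1.91 CPM at passage 11 in Sets 1, 3 and 4, and at 42.3, 43.8 and 10.6 CPM at passage 4. Each passage 11 sample was below each passage 4 sample, on 15, 12 and 3 counts against 163, 228 and 60. The fitted log2 difference was -3.55 (SE 0.55), and between -3.15 and -3.91 when any set was left out. The summed macrophage markers were 4.94, 2.98 and 4.45 CPM at passage 11 and 18.4, 4.61 and 5.45 CPM at passage 4, lower at passage 11 in each set, with C1qa, C1qb, C1qc, Clec4f, Marco and Adgre1 without a row. Only 1 macrophage marker passed the filter on low counts, and it was not called (log2 fold-change -1.33). The share of mitochondrial transcripts was also lower at passage 11, at 0.895, 1.56 and 1.71% against 1.99, 2.63 and 2.06%, with no overlap. The part of either in the Apoe level, and in the Apob level given further on, was not tested.

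Apoa1 stood at 5.39, 85.7 and 1.27 CPM at passage 11 in Sets 1, 3 and 4, and at 2.07, 0.768 and 1.23 CPM at passage 4. The difference came from Set 3, whose passage 11 sample held 431 counts, 210 and 221 in its technical replicates, and the groups overlapped. The log2 fold-change was 4.66 (SE 1.19, adj. P-value = 0.0219). Without Set 3 it was 1.26 (adj. P-value = 0.273), and limma-voom did not call it (3.44, adj. P-value = 0.149). In the same sample Apoa4 reached 15.5 CPM (78 counts) and Apoc3 10.5 CPM (53 counts), where passage 4 of Set 3 held 0 and 2 counts. Elsewhere in this table Apoa4 had at most 5 counts and Apoc3 at most 6. All 3 neighbours on chromosome 9 were therefore highest in the same passage 11 sample. The summed enterocyte markers were also highest there, at 337 CPM, against 238 and 178 CPM in Sets 1 and 4 at passage 11 and 124 to 165 CPM at passage 4.

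**Figure D2:**
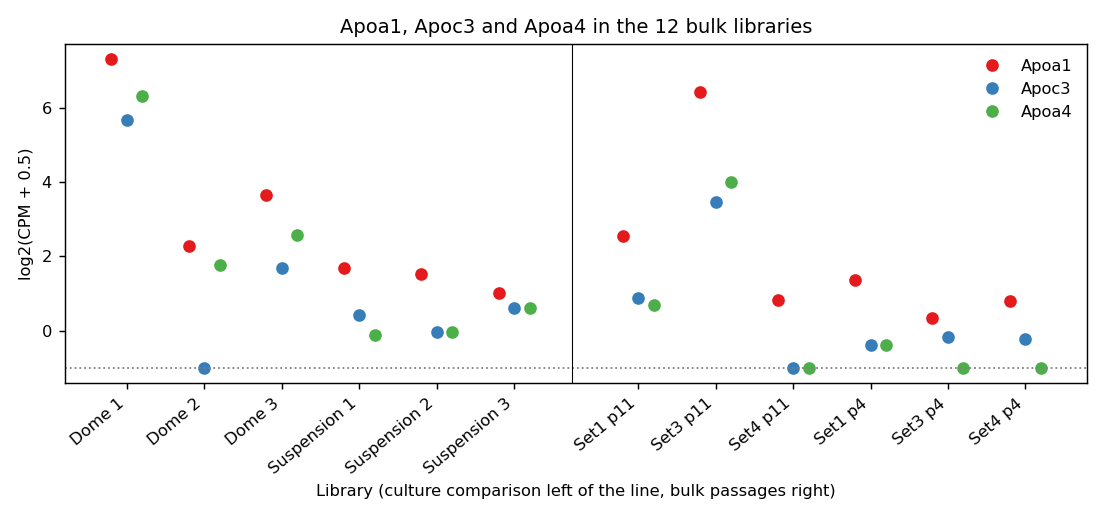
Apoa1, Apoc3 and Apoa4 in each of the 12 bulk libraries, as log2(CPM + 0.5) on the vertical axis, where the dotted line marks a count of 0. All 3 genes are highest in Dome 1 among the culture libraries and in Set 3 at passage 11 among the passage samples.

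Apob had 0.673, 1.79 and 0 CPM at passage 11 in Sets 1, 3 and 4, and 3.11, 4.03 and 1.94 CPM at passage 4. The groups did not overlap, on only 3, 9 and 0 counts against 12, 21 and 11. The 0 allows up to 3 counts, which are 1.91 CPM in that sample after TMM scaling. The log2 fold-change was -1.49 (SE 0.59, adj. P-value = 0.101), and -1.70 with set as a block, where it was called (adj. P-value = 0.0452). Mttp was 1.35, 3.98 and 2.54 CPM at passage 11 and 1.81, 2.50 and 3.34 CPM at passage 4 (log2 fold-change 0.04, SE 0.46, adj. P-value = 0.967). Apobec1 was 14.8, 6.56 and 1.27 CPM at passage 11 and 10.1, 14.4 and 11.8 CPM at passage 4, higher in Set 1 and lower in Sets 3 and 4 (log2 fold-change -0.51, SE 0.45, adj. P-value = 0.463). Apoa2 was 2.69, 3.18 and 3.18 CPM at passage 11 and 1.30, 2.69 and 2.11 CPM at passage 4, with no overlap (log2 fold-change 0.52, SE 0.38, adj. P-value = 0.372). Apoc2 had 0 to 2 counts and Apom 0 to 5 counts a sample, too few for a statement on either.

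**Figure D3:**
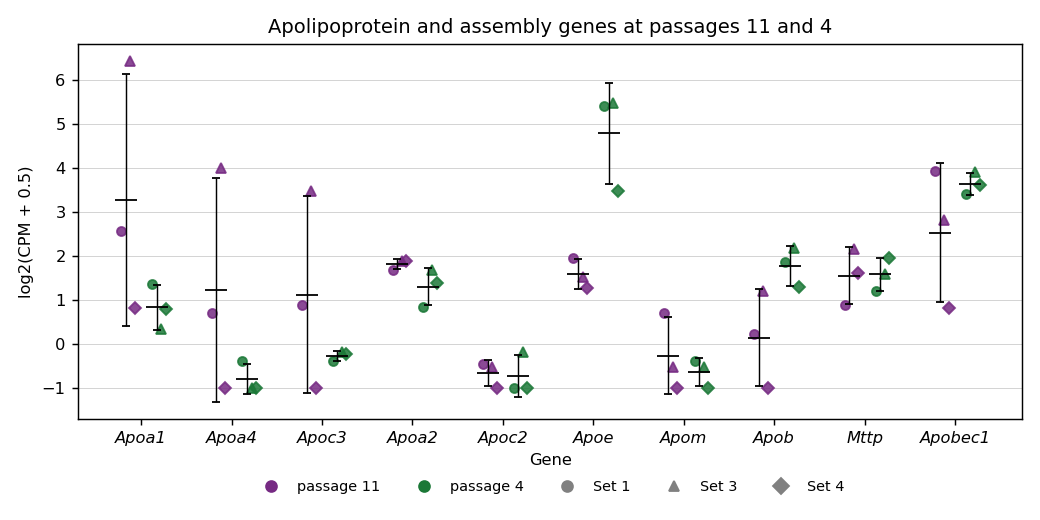
Level of each gene in Sets 1, 3 and 4 at passages 11 and 4, as log2(CPM + 0.5) on the vertical axis. Points are samples, shapes are sets, dashes are means and bars are SD (n = 3). Apoe and Apob lie lower at passage 11 in every set, and Set 3 stands apart at passage 11 for Apoa1, Apoa4 and Apoc3.

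Among the other pathway genes at passage 11, 0 of 9 other apolipoproteins tested were higher and 4 lower (median log2 fold-change -0.92). The largest fall was in Saa3, an acute phase apolipoprotein (-2.57, SE 0.53, adj. P-value = 0.00922). Of 23 assembly genes, 2 were higher and 5 lower: Tfg, of the vesicle coat machinery, rose by 0.49 (adj. P-value = 0.0483), and Soat2, which makes the cholesteryl esters packed into particles, fell by 1.95 (SE 0.35, adj. P-value = 0.00540). Hnrnpab, at 0.57 (adj. P-value = 0.0201), was the 1 editing partner of 7 called, and it was higher. Of 13 receptors, 1 was higher, Scarb1 at 0.50 (adj. P-value = 0.0371), and 3 lower, led by the ApoE receptor Vldlr (-2.14, SE 0.33, adj. P-value = 0.00282). Of 12 genes of efflux and remodelling, 2 were higher, with Pon2 at 0.54, and 4 lower, with the cholesterol exporter Npc1 at -2.68 (adj. P-values 0.0270 and 0.00169). Of 22 regulators, 0 were higher and 2 lower, with Cebpb at -0.60 (adj. P-value = 0.0157). Fabp2, the intestinal fatty acid binding protein, was the largest rise among 3 called of 4 enterocyte markers (3.74, SE 0.84, adj. P-value = 0.0133), and Fabp1, its liver counterpart, was the 1 called of 5 hepatocyte markers (3.06, SE 0.82, adj. P-value = 0.0256). Summed hepatocyte markers were 980, 1090 and 1227 CPM at passage 11 in Sets 1, 3 and 4 and 410, 791 and 835 CPM at passage 4, with no overlap and the highest level in Set 4. The 2 of 22 regulators lie below the 20.3% of all genes called at this comparison. Saa3, Soat2, Vldlr and Npc1 were each named as the largest called fall of a list. Tfg, Hnrnpab, Scarb1 and Pon2 were named as the largest called rises. The direction of these names was thus set by the choice, and shows no shared movement with Apoe.

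Single organoids allowed the members to be read organoid by organoid. With 14.3, 9.43, 20.0, 3.93, 12.4 and 11.6% of 13927 genes called in Set 1 minus Set 2, Set 1 minus Set 3, Set 1 minus Set 4, Set 2 minus Set 3, Set 4 minus Set 2 and Set 4 minus Set 3, the members called were 3 of 6 tested, 3 of 6, 3 of 6, 1 of 7, 0 of 6 and 3 of 6. In Set 4 minus Set 2 edgeR called 0 members, with 3 at an unadjusted p under 0.05, and limma-voom and DESeq2 also called 0. Apoc2 failed the filter on low counts, with at most 8 counts an organoid.

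Apob set Set 1 apart. Its lowest, median and highest levels were 10.8, 31.8 and 73.2 CPM in Set 1, 0.984, 3.48 and 6.10 CPM in Set 2, 3.27, 5.42 and 18.0 CPM in Set 3 and 1.26, 2.05 and 4.40 CPM in Set 4. Every organoid of Set 1 exceeded every organoid of Sets 2 and 4, and the 2 high organoids of Set 3 reached into the range of Set 1. The log2 fold-change of Set 1 was 3.32 against Set 2 (SE 0.34, adj. P-value = 4.32e-09), 1.83 against Set 3 (SE 0.38, adj. P-value = 0.000935) and 3.69 against Set 4 (SE 0.32, adj. P-value = 1.15e-10). Apob was also lower in Set 4 than in Set 3 (-1.86, SE 0.39, adj. P-value = 0.00117). Set 2 was lower than Set 3 as well (-1.49, SE 0.41, adj. P-value = 0.0118), which was lost with limma-voom (adj. P-value = 0.0699) and without Set 3 organoid 5 or 6. The order of means was Set 1 (33.4 CPM, SD 19.0, n = 8), Set 3 (9.51, SD 7.29, n = 5), Set 2 (3.57, SD 1.60, n = 10) and Set 4 (2.74, SD 1.29, n = 12). The neighbours Set 2 and Set 4 were not called different (-0.37, SE 0.38, adj. P-value = 0.572).

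Apom, the carrier of sphingosine-1-phosphate, was likewise called higher in Set 1 than in each other set, by 2.27 (SE 0.41, adj. P-value = 0.000147), 3.09 (SE 0.58, adj. P-value = 0.000253) and 2.07 (SE 0.37, adj. P-value = 0.000147) against Sets 2, 3 and 4. Its lowest, median and highest levels were 0.777, 3.21 and 19.8 CPM in Set 1, on 1 to 90 counts. The means of Sets 2, 3 and 4 were 1.27, 0.773 and 1.59 CPM, on 1 to 10 counts an organoid. The sets overlapped, and organoids 3 and 6 of Set 1 were highest at 19.8 and 10.4 CPM. Apoa1 was called higher in Set 1 than in Set 2 (2.15, SE 0.66, adj. P-value = 0.0269) and Set 4 (3.97, SE 0.75, adj. P-value = 0.000279), on at most 10 counts an organoid. It was at 0 in 1 of 8 organoids of Set 1, 7 of 10 of Set 2, 3 of 5 of Set 3 and 11 of 12 of Set 4. The call against Set 2 was not made by limma-voom (adj. P-value = 0.0776) or DESeq2 (adj. P-value = 0.0725), and without organoid 3 of Set 1 Apoa1 no longer passed the filter on low counts. Apoa2 was called between no pair of sets in these fits, with mean levels from 1.08 to 1.88 CPM.

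Apoe readings overlapped between all sets. The lowest, median and highest levels were 43.5, 116 and 1527 CPM in Set 1, 63.3, 106 and 201 CPM in Set 2, 62.5, 72.3 and 122 CPM in Set 3 and 45.0, 58.1 and 85.5 CPM in Set 4. Organoid 3 of Set 1 held 6938 Apoe counts, when the next highest organoid, number 6 of the same set, held 920. Fitted log2 differences of Set 1 from Sets 2, 3 and 4 were 1.37, 1.84 and 2.30, and -0.05, 0.42 and 0.88 without that organoid, an alternative chosen after seeing the data. The means fell in the order Set 1 (285 CPM, SD 504), Set 2 (112, SD 43.0), Set 3 (80.3, SD 24.5) and Set 4 (58.4, SD 12.7). Set 2 minus Set 3, the 1 set comparison of Apoe open to a test, gave 0.47 (SE 0.48, adj. P-value = 0.574). Organoid 3 was also highest of Set 1 in Apom and in the summed hepatocyte markers, at 2658 CPM against 572 to 2406 CPM in its 7 companions. Its macrophage markers summed to 2.42 CPM, within the 1.80 to 3.47 CPM of Set 1, with C1qa, C1qb and C1qc without a row.

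**Figure D4:**
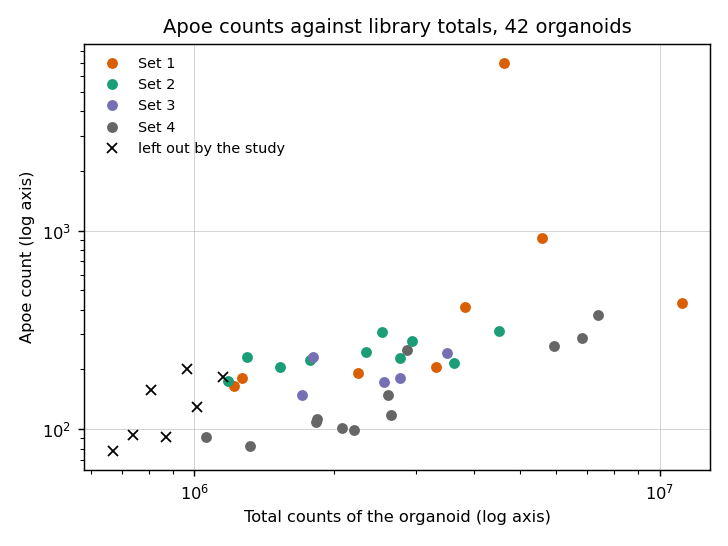
Apoe count against total counts for 42 single organoids, both on log axes, coloured by set, with crosses for the 7 organoids that the study left out. Organoid 3 of Set 1 lies far above the rest with 6938 counts, and the other organoids lie between 78 and 920 counts.

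Mttp and Apobec1 had their highest means in Set 3. Mttp was lower in Set 4 (mean 6.12 CPM, SD 1.78) than in Set 3 (11.4, SD 4.22) by 0.94 on the log2 scale (SE 0.26, adj. P-value = 0.0151), a call lost without Set 3 organoid 3 or 5 (adj. P-values 0.0594 and 0.0703), while Sets 1 and 2 averaged 8.82 and 8.47 CPM. Apobec1 was lower in Set 4 (3.50 CPM, SD 1.91) than in Set 3 (6.86, SD 1.61), at -1.02 (SE 0.31, adj. P-value = 0.0259), lost without Set 3 organoid 1 or 3 (adj. P-values 0.0580 and 0.0797) and with no filter beyond 1 count (adj. P-value = 0.0530). It was also lower in Set 1 (3.42 CPM, SD 1.29) than in Set 3, at -1.04 (SE 0.33, adj. P-value = 0.0343), a call lost without organoid 3 of Set 1 (adj. P-value = 0.0635), without organoid 1, 3, 5 or 6 of Set 3 (adj. P-values 0.0527 to 0.0926), with no filter beyond 1 count (0.0708) and over all 42 organoids (0.0686). Sets 1 and 4, with the highest and lowest Apob, were not called different in Apobec1 (-0.02, SE 0.29, adj. P-value = 0.981).

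**Figure D5:**
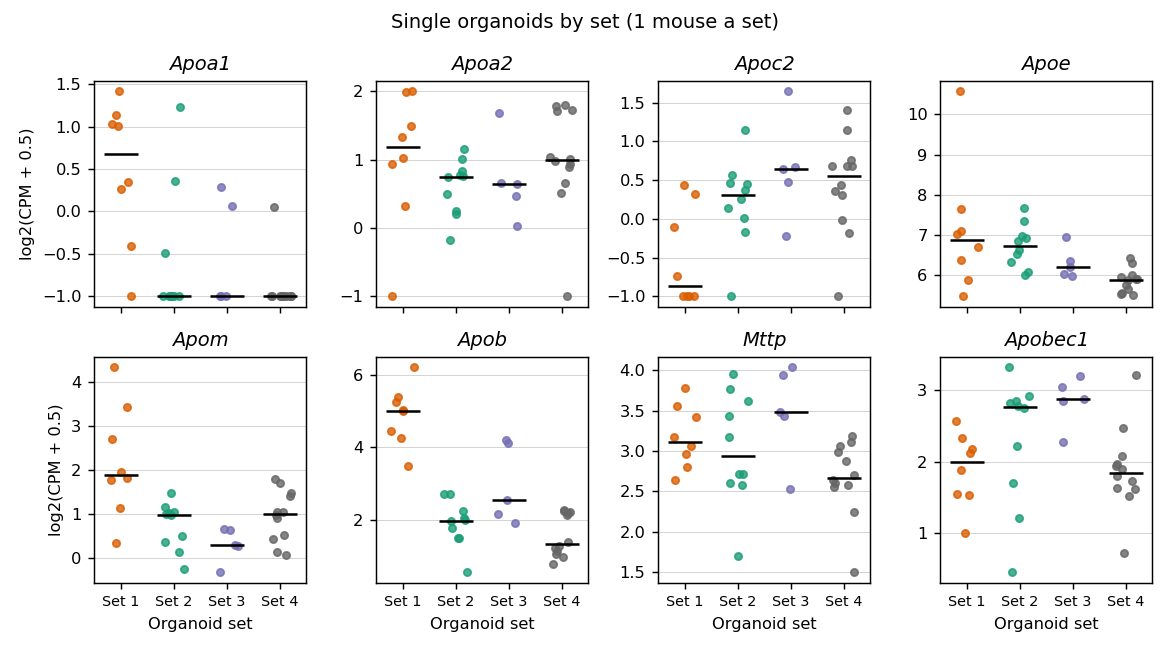
Level of 8 genes in 35 single organoids by set, as log2(CPM + 0.5) on the vertical axis, which differs between panels. Points are organoids and lines are set medians. All 8 organoids of Set 1 lie above Sets 2 and 4 for Apob, and 1 organoid of Set 1 lies far above the rest for Apoe.

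The 6 further genes given here were called in all 3 comparisons of Set 1, in the same direction as Apob and Apom. Each was picked as the gene of its list with the largest mean rise among those so called, so 6 is not a count of list genes called. Apoc4, an apolipoprotein gene between Apoc1 and Apoc2 beside Apoe, was higher by 2.18, 2.27 and 2.45 against Sets 2, 3 and 4 (adj. P-values 0.000243, 0.00266 and 1.80e-05). Dgat2, which makes triglyceride, was higher by 0.99, 1.02 and 1.22, and Lrp1, a receptor for ApoE particles, by 2.00, 1.57 and 1.52. Pon3, a paraoxonase of high-density lipoprotein, was higher by 0.89, 0.69 and 1.07. Prox1, a liver transcription factor, was higher by 2.85, 2.21 and 2.44, and Fgb, the hepatocyte marker fibrinogen beta, by 2.79, 2.79 and 3.49. Of 22 assembly genes, 4, 2 and 6 were higher and 1, 0 and 0 lower in Set 1 than in Sets 2, 3 and 4. Of 24 regulators, 6, 3 and 7 were higher and 1, 1 and 2 lower. Over all genes tested, 14.3, 9.43 and 20.0% were called in these comparisons. Summed enterocyte markers, 8 of 12 with a row and Alpi, Lct, Sis and Isx without, were 114 to 194 CPM in Set 1 and 62.6 to 132 CPM in the other sets. Summed hepatocyte markers were 572 to 2658 CPM in Set 1 and 522 to 2679 CPM in the others. Their part in the Apob, Apom and Apoa1 levels was not tested.

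The organoids of Set 1 and the bulk passage 11 samples gave different pictures of Apob. Bulk Set 1 held 0.673 CPM at passage 11 on 3 counts and 3.11 CPM at passage 4, whereas the 8 single organoids of Set 1 ranged from 10.8 to 73.2 CPM. Apoe in bulk Set 1 stood at 3.37 CPM at passage 11 and 42.3 CPM at passage 4, and at 43.5 CPM or more in each single organoid of that set. Bulk Set 3 at passage 11 held Apoa1 at 85.7 CPM, while single organoids of Set 3, picked at passage 3, had at most 0.722 CPM. The tables were normalised separately, and the levels are set side by side with no test. Per the paper, total RNA was extracted from bulk organoids and mRNA on beads from single ones. Its main text does not give the culture form of the bulk passage samples. Mitochondrial transcripts took 0.895 to 1.71% of counts at bulk passage 11 and 2.45 to 3.88% in Set 1 organoids. The part of these differences in the levels was not tested.

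Within sets, the members that could be followed over the 35 organoids (Apob, Apoe, Mttp and Apobec1, with a median count of at least 10) did not pass a test of moving together. Of 6 pairs, 0 passed the adjusted threshold in 100000 two-sided permutations within sets, for Pearson's r and for Spearman's rho alike. By Pearson's r the strongest was Apoe and Apobec1, with r = -0.33 (permutation p = 0.0289, adjusted 0.173) and rho = -0.40 (permutation p = 0.0275, adjusted 0.0824), and r was -0.47 without the 2 organoids farthest from the Apoe median. Apoe and Mttp, the strongest by rho, gave r = -0.26 (permutation p = 0.0770, adjusted 0.231) and rho = -0.43 (permutation p = 0.0170, adjusted 0.0824), and r was -0.49 without those 2. Within Set 2 alone the 2 values of r were -0.74 and -0.76, against -0.41 and -0.18 in Set 1 and 0.04 and 0.39 in Set 4. Organoids 6 and 2, with the lowest total counts of Set 2 (1180937 and 1298591), had its highest Apoe, at 161 and 201 CPM. They held only 3 and 7 Mttp counts and 3 and 1 Apobec1 counts. The part of library depth in these values of r was not tested. Mttp and Apobec1 had r = 0.29 (permutation p = 0.145, adjusted 0.289) and rho = 0.31. Apob gave r of 0.12 with Apoe, -0.14 with Mttp and -0.21 with Apobec1, and rho of 0.20, -0.16 and -0.14 (permutation p 0.201 to 0.558 for r, adjusted 0.301 to 0.558). Set 3 held too few organoids for a value.

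Among the 8432 better expressed genes (average log2 CPM 3 or more), those whose set-centred pattern was most like Apoe were Osgin1 (r = 0.67), Ambp (0.64) and Rfxap (0.61). Without organoid 3 of Set 1 these were 0.59, 0.43 and 0.40. Apob was most like Tob1 (0.59), Gm3776 (0.57) and Ccng1 (0.56), Mttp most like Hist1h2ac (0.75), Gm26232 (0.73) and Pdcd7 (0.72), and Apobec1 most like Msn (0.68), Rnf40 (0.66) and Taok2 (0.66). All are descriptions over 35 organoids that share library depth and preparation. No other member was among the 3 nearest of any member, but the level of 3 shut several members out. Apobec1, Apom, Apoa2 and Apoa1 averaged log2 CPM of 2.37, 1.74, 1.20 and 0.06 and could not appear. Their absence therefore says nothing on likeness between members.

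How far organoids of a set varied also differed by gene. The biological coefficient of variation in the organoid fit was 0.57 for Apoe and 0.45 for Apob, above the 0.27 and 0.29 of the trend at their levels. The Apoe value includes organoid 3 of Set 1. It was 0.53 for Apom and 0.58 for Apoa1, against 0.36 and 0.41. Mttp and Apobec1, at 0.29 each, lay at or below their trend values of 0.30 and 0.33, as did Apoa2 at 0.33 against 0.39. These are descriptions with no test.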

How the data were processed

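The data were whole-number gene counts, deposited by the authors as 3 tables for 6 culture libraries, 12 technical libraries of 6 bulk passage samples and 42 single organoids. Per the labels, cDNA was barcoded with unique molecular identifiers and the submitters' processing notes name STAR, SAMtools 1.9, featureCounts and the builds GRCm38 and mm10. Whether the counts are reads or collapsed identifiers, and how overlapping genes or strand were handled, was not given in the sources used here.

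Technical replicates were summed, and 7 organoids that the study left out entered only an alternative fit of all 42, the plot of Apoe counts and the closing observations. The filter was filterByExpr at a minimum count of 3. Counts were scaled by TMM and tested with the quasi-likelihood test of edgeR 4.0.16 in R 4.3.3, Benjamini-Hochberg adjusted at 0.05, where the 6 set comparisons shared 1 fit over 4 sets and were adjusted together. The edgeR fit was first tested on simulated counts for the dome, bulk passage and Set 1 minus Set 2 comparisons only. The other set comparisons, the joint adjustment and the alternatives named next were not tested in this way. The study's own test, limma-voom (limma 3.58.1), DESeq2 1.42.0, other filters and scalings, thinning, a replicate block and leaving out samples were the alternatives. Pair correlations used log2 CPM (prior count 2) with set means removed. Counting intervals cover counting error only, and a count of 0 was read as allowing up to 3 counts. Apart from separate sets and pools, nothing in the labels makes organoids of a set independent of their mouse.

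The members, the gene lists and the tests were chosen with earlier results of these data known. The named genes were the members, the called gene of each list with the largest rise and fall in each bulk comparison (average log2 CPM of at least 1), list genes called in all 3 comparisons of Set 1, and the 3 genes most like each member. The same culture number was taken to mark a pool grown in both conditions. Residual correlations within a culture number were 0.15, 0.16 and 0.19. They were not set against those between unlike numbers, so they cannot show that the pools were shared. Bulk samples of a set share a mouse (0.11, 0.03 and 0.11). These numbers paired the samples in the block fits. Gene positions are from GENCODE vM21 and start sequences from RefSeq (GRCm38.p6), with 9 of 10 members matched.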

Additional observations from a re-analysis of the deposited data

Results flagged for a closer look

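Apoe in organoid 3 of Set 1, at 1527 CPM against 199 CPM in the next organoid, lay farther from the other 7 than the Dixon 95% value allows (gap over range 0.573 on the log2(CPM + 0.5) scale, critical value 0.526). It was 1 flag among 21 groups of organoids examined, where chance flags about 1 in 20. Whether the organoid or its library carries this was not tested.

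Apobec1 moved with passage in opposite directions between sets. Both technical replicates were higher at passage 11 in Set 1 (0.44 on the log2(CPM + 0.5) scale, here with CPM of plain library totals), and both were lower in Set 3 (-1.02) and in Set 4 (-2.91, on 2 counts at passage 11). Set 1 thus differed from Set 3 by 1.46 and from Set 4 by 3.35. With 1 sample per set and passage the difference was not tested.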

How the results depend on the processing

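The log2 fold-changes of members kept direction and side of the threshold in 627 of 695 recomputations. In 15 more an uncalled or untested value changed sign on the same side, as for Apom in domes and for Apoa1 and Apoa2 in Set 2 minus Set 3. The call was lost in 40 and gained in 9, each with its sign kept, and 4 untested values moved, 1 of them (Apoe in Set 1 minus Set 2) with a change of sign. All 36 recomputed pair correlations kept their side of the threshold. Members called in domes numbered 3, but 5 with no filter beyond 1 count, and 1 with a minimum count of 10, after thinning every library to the lowest total and with DESeq2, and 0 to 4 when any library was left out (0 without Suspension 3). At bulk passage 11 the 1 called member became 4 without a filter, 0 with a minimum count of 10 and with limma-voom, 2 with set as the block, and 0 to 3 when a set was left out (0 without Set 3). With a minimum count of 10, 1 member was called in Set 1 minus Set 2 and 1 in Set 1 minus Set 4, in place of 3. The 1 member of Set 2 minus Set 3 was lost (0 called) with limma-voom, after thinning, with only the 2 sets in the fit, with adjustment within that comparison and with organoid number as a block, and stood at 0 to 1 without 1 organoid of Set 3. In Set 4 minus Set 3 that block left 1 of 3, and leaving out 1 organoid of Set 3 left 1 to 3. Organoid numbers do not pair the sets, so this block says nothing of their effect size. In Set 1 minus Set 3, leaving out 1 organoid gave 2 to 4. Apart from the calls of Apoa2, Apob and Apoe in domes and Apob with passage, pairing changed no other call of a member in the bulk comparisons. The cause of these shifts was not tested, except that fewer genes are tested under a stricter filter. Calls gained with no filter carry the limit given for Apoe in domes. Apoa1, Apoa4, Apoc2, Apoc3 and Apom rest on few counts in most libraries, which limits what depth allows for them.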

Other observations

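Apoe counts in single organoids followed library size less closely than those of most genes. Over all 42 organoids, the 7 left out by the study included, log2 Apoe counts rose by 0.68 per log2 unit of total counts, and by 0.55 without organoid 3 of Set 1, when the median gene rose by 0.96. Over all 42 organoids, 5.15% of 10345 genes had a lower slope than Apoe. For the Apoe slope without organoid 3 of Set 1 the share was 1.01%. That share is not like for like, as the other genes and their median kept this organoid. With it left out, Apoe counts lay between 78 and 920 while totals ran from 666660 to 11175868. The same slopes with the highest organoid left out were 0.75 for Apob, 0.99 for Mttp and 0.88 for Apobec1. This was seen after the data were examined and is given as values only.

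Of the 7 organoids left out by the study, organoid 9 of Set 1 had the highest Apob level of all 42, with 151 counts of 1013166 (149 CPM of its plain total), beside organoid 10 of Set 1 at 8.31 CPM. The other 5, from Sets 2, 3 and 4, had 1.35 to 4.97 CPM.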
